A study of Mus musculus with 6 samples.

Results

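The 10 apolipoprotein genes Apoa1, Apoa2, Apoa4, Apoa5, Apob, Apoc1, Apoc2, Apoc3, Apoe and Apom were examined in mouse livers made to express Sonic Hedgehog (SHH), a secreted protein that switches on the Hedgehog pathway. They were chosen by symbol, as 10 of the 22180 genes measured, and each was read from its one array probe set that names no other gene. Expression was measured on 1 Affymetrix array per mouse, in 3 livers expressing SHH (mice 26, 28 and 31) and 3 livers expressing green fluorescent protein, GFP (mice 6, 13 and 21). All 6 animals were male on a C57BL/6 background and were listed as untreated apart from the gene brought in, which the design text says was delivered by hydrodynamic transfection. This method forces DNA into hepatocytes with a fast, large-volume injection, and it typically reaches only part of them. The age of the mice, the time since injection and the promoter driving each gene are not given in the labels. The series set out to measure liver fibrosis and the genes tied to it under SHH.

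Apolipoproteins are the protein part of the particles that carry fat and cholesterol in blood, and the liver is their main source. Apob forms the frame of very low density lipoprotein (VLDL), while Apoa1 and Apoa2 are the main proteins of high density lipoprotein (HDL). Smaller exchangeable members move between particles and set how fast triglyceride is removed, with Apoc2 activating lipoprotein lipase, Apoc1 and Apoc3 slowing clearance, Apoa5 promoting it and Apoe serving as the ligand for uptake by receptors. Apom carries sphingosine 1-phosphate on HDL. In inflammation, serum amyloid A proteins join HDL, and hepatocytes shift their secretion toward acute phase proteins.

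Signals are log2 values made with RMA, a method that removes background, equalises the arrays and combines each set's probes into 1 value. They are not comparable between genes as amounts of RNA, because each probe set responds differently. The 6 arrays had medians between 4.32 and 4.40 and correlated with one another at Pearson r of 0.971 to 0.981 over all probe sets. Shh signal was 4.57, 4.28 and 4.63 in the SHH livers, against 3.86, 3.43 and 3.67 in the GFP livers, so each array matched its label, although the limma test of Shh gave adjusted p = 0.356. The 10 hepatocyte markers examined, such as Alb, had signals of 9.17 to 13.7 in SHH livers and 9.30 to 13.7 in GFP livers. RNA came from whole liver, where fewer cells of a type and less RNA per cell cannot be told apart.

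None of the 10 apolipoprotein genes passed the threshold of 0.05 over all genes (limma with Benjamini-Hochberg adjustment, adjusted p from 0.672 to 0.974). Over all 22180 genes the share that passed was 0% in either direction. At an unadjusted p under 0.05 there was 1 apolipoprotein gene, Apom, which was higher. Of all genes, 7.34% lay under that value, 3.33% higher and 4.01% lower in SHH livers. Mean signal was lower in SHH livers for 6 of the 10 and higher for 4, against 56.2% lower over all genes. The median difference was -0.07 on the log2 scale for the apolipoprotein genes and -0.03 for all genes, and the median absolute difference was 0.11 and 0.12. The largest difference was 0.33, for Apom, and the next was -0.30, for Apoe. The 95% intervals of all 10 lay within 1 log2 unit of no difference, and those of 7 within 0.5. The bound farthest from 0 was 0.66, a 1.58-fold change.

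The signals of SHH and GFP livers did not overlap for 4 genes. Every SHH value of Apoa2, Apoc3 and Apoe lay below the lowest GFP value, 3 of 10, where 7.25% of all genes showed that order. Apom was higher in each SHH liver, 1 of 10, where 5.26% of all genes did. With 1 mouse left out, 3 mice were set against 2 and fewer values had to be in order, so the share of all genes without overlap rose to 11.5% to 14.03% lower and 8.99% to 10.7% higher. In those fits the members without overlap numbered 3 to 5 lower and 1 to 2 higher, with 5 and 2 without GFP 21 and 4 and 2 without SHH 31. A second quantile normalization left 2 lower and 0 higher, and equal array medians left 2 lower.

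**Figure D1:**
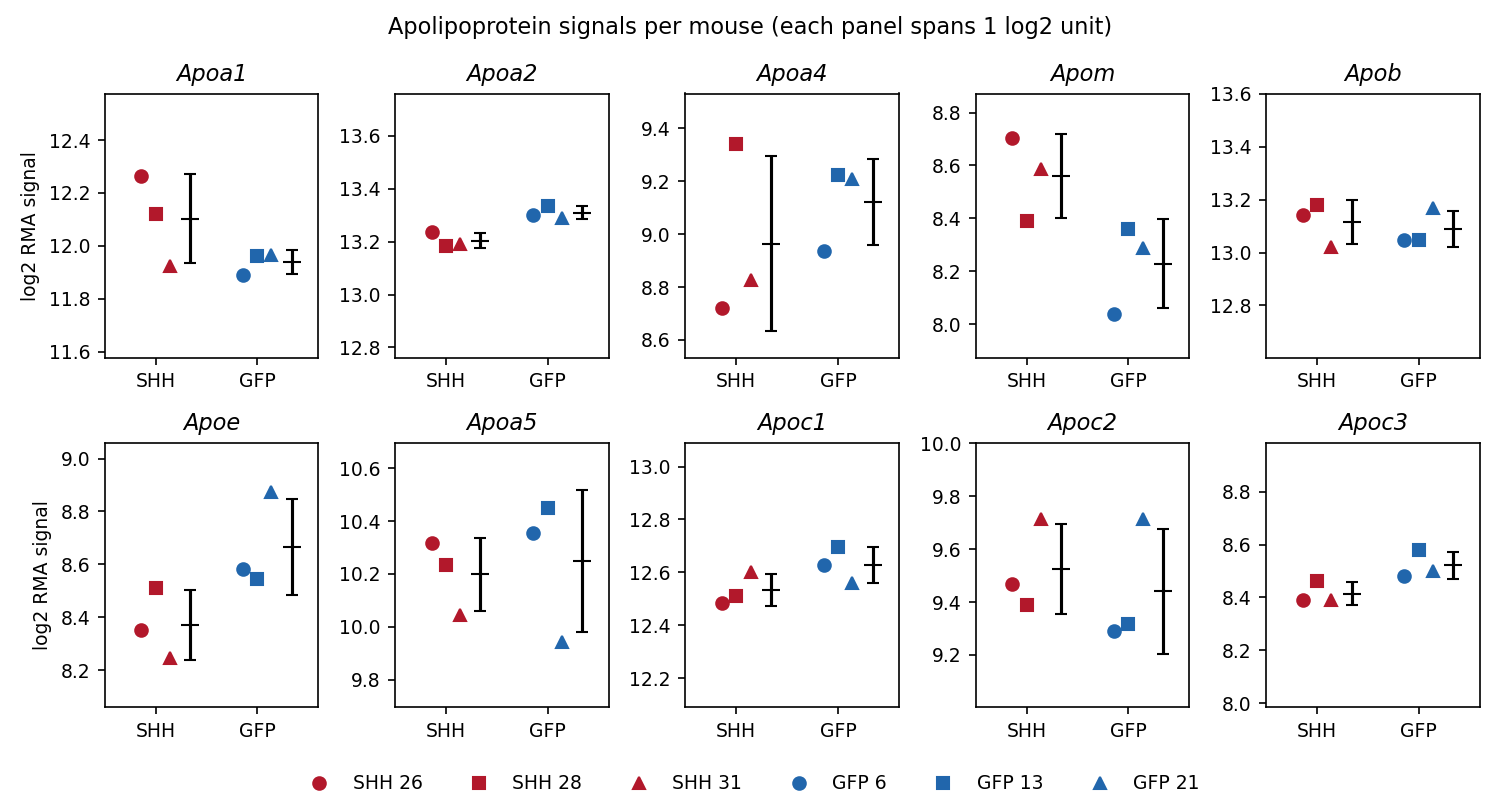
Log2 RMA signal of each apolipoprotein gene in the SHH livers (red, left) and GFP livers (blue, right), 1 point per mouse, with the mean and SD of 3 mice in black and every panel spanning 1 log2 unit. Apom sits higher in the SHH livers (8.39 to 8.70 against 8.04 to 8.36), Apoe sits lower (8.25 to 8.51 against 8.54 to 8.87), and 6 genes overlap.

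Upstream sequence is shown for 4 members, to set the pair with the largest differences, Apom and Apoe, beside the pair whose start region holds a match to the site of HNF4, the nuclear receptor that drives many hepatocyte genes. The sequences are from RefSeq on build GRCm38.p6, which had windows of 250 bases before to 50 bases after the start for 8 of the 10 genes, 12 windows in all. They end at the base before the annotated start, run 5′ to 3′ on the strand of the gene, and carry in capitals the matches to TGNNCTTTG (HNF4 and other factors binding that repeat) and TATAAA, the box near which transcription often begins, on either strand.
Apom, chr17:35131802-35131921, minus strand: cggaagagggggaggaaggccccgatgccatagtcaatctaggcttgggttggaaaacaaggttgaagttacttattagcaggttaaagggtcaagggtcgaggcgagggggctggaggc
Apoe, chr7:19699189-19699308, minus strand: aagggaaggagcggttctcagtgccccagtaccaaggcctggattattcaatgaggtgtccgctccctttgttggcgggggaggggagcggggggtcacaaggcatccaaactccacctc
Apob, chr12:7977557-7977676, plus strand: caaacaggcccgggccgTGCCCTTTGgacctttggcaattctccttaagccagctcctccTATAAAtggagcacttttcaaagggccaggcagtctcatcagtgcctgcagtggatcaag
Apoa4, chr9:46240594-46240843, plus strand: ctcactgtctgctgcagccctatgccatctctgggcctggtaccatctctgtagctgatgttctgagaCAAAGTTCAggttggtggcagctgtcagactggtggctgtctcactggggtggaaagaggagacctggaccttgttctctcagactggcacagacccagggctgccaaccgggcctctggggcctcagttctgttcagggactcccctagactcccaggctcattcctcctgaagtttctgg
The HNF4-type match was present in 2 of the 12 windows, those of Apoa4 and Apob, and in 6.36% of 32851 windows over all genes. TATAAA was present in 5 of the 12, windows of Apoa2, Apoa5 (2 starts that overlap), Apob and another start of Apoe, and in 13.6% of all windows. Counted from the start, the match lay at -212 to -207 in Apoa2 and at -100 to -95 and -96 to -91 in Apoe. In Apob it lay at -60 to -55, and for the 2 starts of Apoa5 at -31 to -26 and -56 to -51. Whether any of these matches sets a start was not tested. GTTAAT, an HNF1 element, was present in 2 of the 12, windows of Apoc2 and of another start of Apoe, against 7.10% of all windows. TTGNGNAA (C/EBP, 13.3% of all windows) and TTCNNNGAA (STAT, 8.30%) were present in 0 of the 12. Both strands were searched over the whole windows; a match is a run of letters, not a site shown to be bound.

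Among the HDL proteins, Apom had the largest difference of the 10 genes. Its signal was 8.70, 8.39 and 8.59 in SHH mice 26, 28 and 31, against 8.04, 8.36 and 8.29 in GFP mice 6, 13 and 21. The groups were separated by 0.03 between SHH 28 and GFP 13, and GFP 6 was the lowest of the 6. The mean was 8.56 ± 0.16 in SHH livers and 8.23 ± 0.17 in GFP livers (SD, n = 3 each), a difference of 0.33 (1.26-fold, 95% interval 0.01 to 0.66). Its unadjusted limma p was 0.0453 and its adjusted p was 0.672. Leaving out each mouse in turn gave differences of 0.24 to 0.42. The unadjusted limma p rose to 0.143, 0.0881, 0.170 and 0.0648 without SHH 26, SHH 31, GFP 6 and GFP 21. It fell to 0.0266 and 0.0398 without SHH 28 and GFP 13.

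Apoa1, the structural protein of HDL and activator of the enzyme that esterifies its cholesterol, differed little. Its signal was 12.26, 12.12 and 11.93 in the SHH livers, against 11.89, 11.96 and 11.97 in the GFP livers. SHH 26 and SHH 28 lay above all GFP livers, and SHH 31 lay among them. The mean was 12.10 ± 0.17 in SHH livers and 11.94 ± 0.04 in GFP livers (SD, n = 3 each), a difference of 0.16 (95% interval -0.13 to 0.46; limma, adjusted p = 0.840). It was 0.08 without SHH 26 and 0.25 without SHH 31.

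Apoa2, the other major HDL protein, was lower in each SHH liver, by a small margin. Its signal was 13.24, 13.18 and 13.19 in the SHH livers, against 13.30, 13.34 and 13.29 in the GFP livers. The difference of means was -0.11 (0.930-fold, 95% interval -0.36 to 0.15), and it did not pass (limma, adjusted p = 0.892). The SD over mice was 0.03 in SHH livers and 0.02 in GFP livers. The limma fit draws each gene's variance toward a value shared by all genes. The interval is therefore wider than the spread of these mice alone would give.

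Apoa4, a protein of HDL and of triglyceride-rich particles that the intestine makes too, varied most among SHH livers. Its signal was 8.72, 9.34 and 8.83 in the SHH livers, against 8.94, 9.22 and 9.21 in the GFP livers. SHH 28 was the highest of the 6 mice, and SHH 26 and SHH 31 were the lowest 2. The difference of -0.16 (95% interval -0.57 to 0.25; limma, adjusted p = 0.900) became -0.35 without SHH 28, -0.25 without GFP 6, -0.09 without SHH 31 and -0.04 without SHH 26. Of the 7 enterocyte markers examined, Fabp2 had signals of 8.36 to 8.78 in SHH livers and 8.82 to 9.70 in GFP livers. The other 6, grouped after the values were seen, had 2.34 to 4.57 in SHH livers and 2.51 to 4.67 in GFP livers. The source of the Apoa4 signal was not tested.

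Apob, the structural protein of VLDL and low density lipoprotein, showed the smallest difference. Its signal was 13.14, 13.18 and 13.02 in the SHH livers, against 13.05, 13.05 and 13.17 in the GFP livers. The groups overlapped fully, with SHH 31 the lowest and SHH 28 the highest of the 6. The difference was 0.03 (95% interval -0.24 to 0.30; limma, adjusted p = 0.974), and its sign turned with a second quantile normalization and without SHH 28, over a range of -0.01 to 0.07 with each mouse left out.

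Apoe, the ligand by which particle remnants are taken up, was lower in each SHH liver. Its signal was 8.35, 8.51 and 8.25 in the SHH livers, against 8.58, 8.54 and 8.87 in the GFP livers. The groups were separated by 0.03 between SHH 28 and GFP 13, and GFP 21 stood above the rest. The mean was 8.37 ± 0.13 in SHH livers and 8.67 ± 0.18 in GFP livers (SD, n = 3 each), a difference of -0.30 (0.814-fold, 95% interval -0.62 to 0.02). It did not pass (limma, unadjusted p = 0.0661, adjusted p = 0.706). Leaving out each mouse in turn gave differences from -0.37 without SHH 28 to -0.19 without GFP 21. The unadjusted limma p was 0.0480 without SHH 28, 0.227 without GFP 21 and 0.0449 with a trended prior.

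Macrophages make Apoe too, and their markers were read on the same arrays. All 12 macrophage and Kupffer cell markers had higher means in SHH livers, where 56.2% of all genes had lower ones. The groups did not overlap for 2 of the 12, both higher, where 5.26% of all genes were higher without overlap. Over all genes 0 passed, and 7 had an unadjusted limma p under 0.05, against 3.33% of all genes higher at that value. Relative to the GFP mean they shifted by 0.32, 0.45 and 1.26 in SHH mice 26, 28 and 31, against 0.54, -0.28 and -0.26 in GFP mice 6, 13 and 21. In the same order of mice, Apoe signal was 8.35, 8.51 and 8.25, against 8.58, 8.54 and 8.87. The part of these cells in the Apoe signal was not tested.

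The Apoc genes and Apoa5, which act on lipoprotein lipase and particle clearance, had small differences of both signs. Apoc3, an inhibitor of triglyceride clearance, had signals of 8.39, 8.46 and 8.39 in the SHH livers, against 8.48, 8.58 and 8.50 in the GFP livers. The groups did not overlap, but the gap between SHH 28 and GFP 6 was 0.02. The difference of -0.11 (95% interval -0.37 to 0.15) did not pass (limma, adjusted p = 0.893). The SD over mice was 0.04 in SHH livers and 0.05 in GFP livers, and the interval is again widened by the shared variance. Apoc1, which slows the uptake of remnants, had signals of 12.49, 12.51 and 12.60 in the SHH livers, against 12.63, 12.70 and 12.56 in the GFP livers. SHH 31 lay above GFP 21, and the difference was -0.09 (95% interval -0.36 to 0.17; limma, adjusted p = 0.908), or -0.06 without GFP 13.

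Apoc2, the cofactor of lipoprotein lipase, had signals of 9.47, 9.39 and 9.71 in the SHH livers, against 9.29, 9.32 and 9.71 in the GFP livers. SHH 31 and GFP 21 were equally high, and the difference was 0.08 (95% interval -0.28 to 0.44; limma, adjusted p = 0.941). It was 0.22 without GFP 21, 0.01 without GFP 6 and -0.01 without SHH 31. A further probe set that names Apoc4 and Apoc2 together, left out of the test, read the other way. It gave 10.70, 10.68 and 10.85 in the SHH livers, against 10.81, 11.21 and 10.91 in the GFP livers, a difference of -0.23 with SHH 31 above GFP 6. Apoc4 and Apoc2 are neighbours on the chromosome, and the signal of this probe set cannot be assigned to either.

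Apoa5, which raises triglyceride hydrolysis, had signals of 10.32, 10.23 and 10.05 in the SHH livers, against 10.35, 10.45 and 9.94 in the GFP livers. Its lowest and highest values were both in GFP livers. The difference of -0.05 (95% interval -0.42 to 0.32; limma, adjusted p = 0.967) turned positive without SHH 31, GFP 6 or GFP 13 and was -0.20 without GFP 21.

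**Figure D2:**
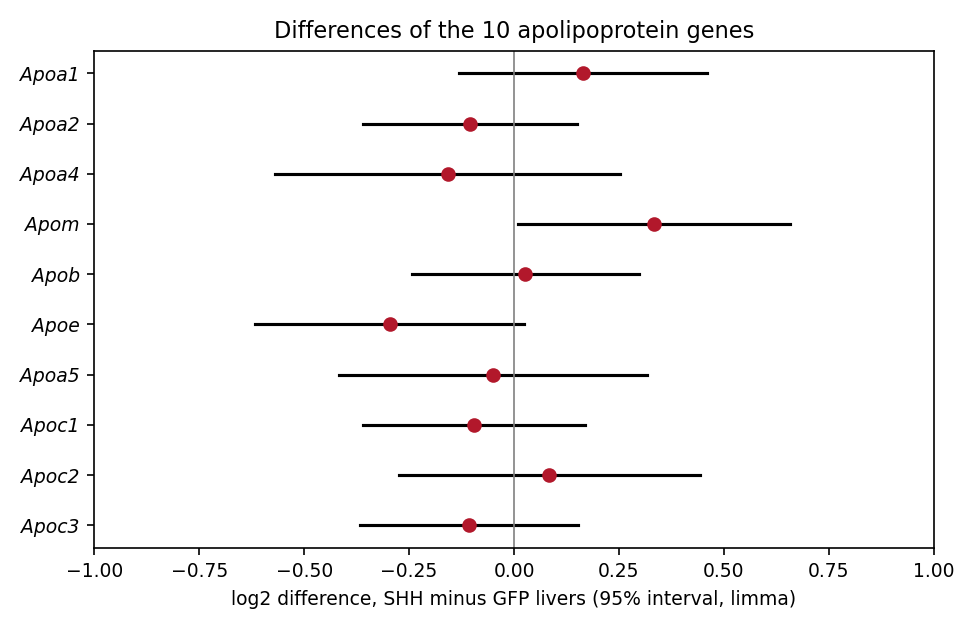
Difference of mean log2 signal, SHH minus GFP livers (x axis), for each apolipoprotein gene, with 95% intervals from the limma fit over 3 mice a group. The interval of Apom (0.01 to 0.66) lies just above 0 and the other 9 include 0.

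Some members lie beside each other in the genome. On chromosome 9, where Apoa1, Apoc3, Apoa4 and Apoa5 follow one another in the RefSeq annotation, the differences were 0.16, -0.11, -0.16 and -0.05 in that order. On chromosome 7, Apoe, Apoc1 and, beyond Apoc4, Apoc2 lie in a row, and their differences were -0.30, -0.09 and 0.08. The chromosome 9 genes shifted on average by -0.03, 0.08 and -0.16 in SHH mice 26, 28 and 31, against -0.04, 0.10 and -0.05 in GFP mice 6, 13 and 21. That of the chromosome 7 genes was -0.14, -0.11 and -0.06 in the SHH livers, against -0.08, -0.06 and 0.14 in the GFP livers, where GFP 21 stood apart.

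Several members were read close to the top of the arrays' range. The highest signal of any gene was 13.66 to 13.72, and Apoa2 lay 0.34 to 0.51 below it, Apob 0.48 to 0.68 and Apoc1 0.98 to 1.23. Apoa1 lay 1.45 to 1.82 below it, and the other 6 members 3.22 or more. Among the 23 genes with a mean of 13 or more, which include Apoa2 and Apob, the median SD within groups was 0.06 and the largest absolute difference was 0.29 (Fgg). Among the 1693 genes with a mean between 8 and 10, which include Apoa4, Apoc2, Apoc3, Apoe and Apom, these were 0.16 and 4.30 (Mt2). A largest value depends on the number of genes. The absolute difference that 95% of genes lay under was 0.16 at 13 or more and 0.53 between 8 and 10. It was 0.60 among the 48 genes between 12 and 13, which include Apoa1 and Apoc1. Signals near the top can understate a change in RNA, so the intervals of Apoa2 and Apob describe the array signal and bound the RNA less firmly. Within their level class, 88.8% of genes had a smaller absolute difference than Apom and 86.0% a smaller one than Apoe.

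**Figure D3:**
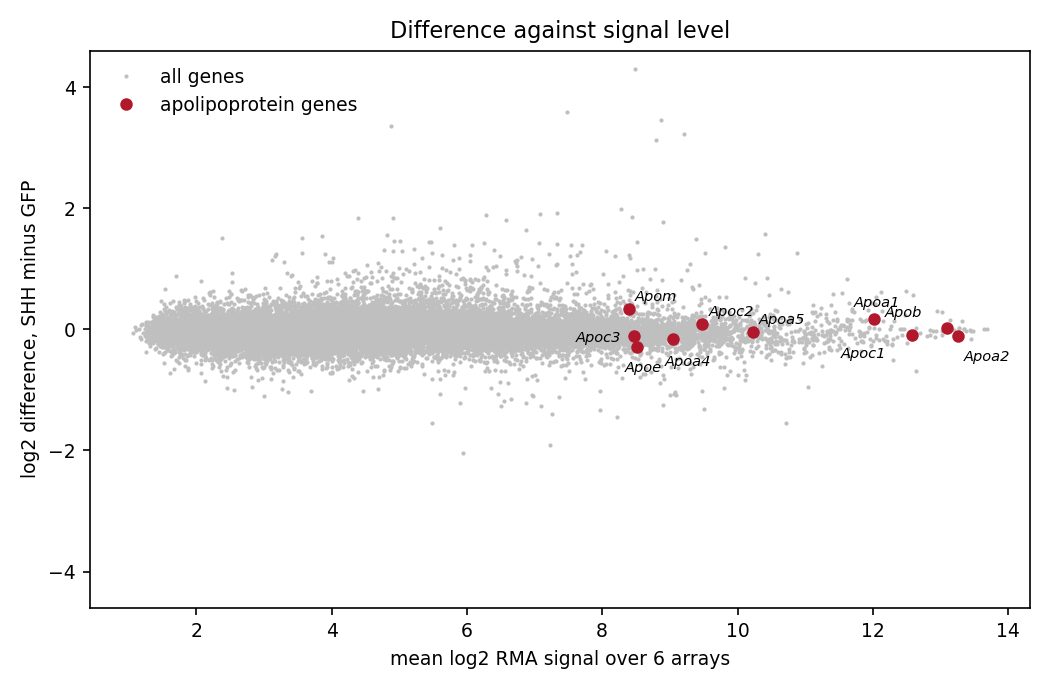
Difference of log2 signal, SHH minus GFP livers (y axis), against the mean log2 signal over the 6 arrays (x axis), for 22180 genes (grey) and the apolipoprotein genes (red). The apolipoprotein genes lie between -0.30 and 0.33, and the spread of all genes narrows above 13.

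Acute phase genes were read on the same arrays. A list of 10 such genes, chosen because earlier results of these arrays showed them higher, had 9 measured, all with higher means in SHH livers. With all mice, 0 of the 9 passed over all genes in limma. All 9 had an unadjusted limma p under 0.05, where 3.33% of all genes were higher at that value. Because the list was chosen from these same arrays for being higher, that count followed largely from the choice. Without SHH 26, 46 of the 22180 genes passed, 6 of them acute phase genes and 0 apolipoprotein genes. The mean shift of the 9 was 0.74, 3.40 and 2.87 in SHH mice 26, 28 and 31, against -0.06, -0.12 and 0.19 in GFP mice 6, 13 and 21. The mean shift of the 10 apolipoprotein genes was -0.01, 0.01 and -0.06 in the SHH livers, against -0.06, 0.03 and 0.03 in the GFP livers. The SHH and GFP means of the apolipoprotein genes overlapped, and this mean combines members with differences of both signs; a relation between the 2 lists was not tested.

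Serum amyloid genes, whose products join HDL, were read on the same arrays. Saa2 had signals of 7.60, 12.85 and 11.33 in the SHH livers, against 6.95, 6.46 and 7.996 in the GFP livers, and SHH 26 lay below GFP 21. Saa3 had 6.42, 7.85 and 8.19 in the SHH livers, against 5.49, 5.54 and 6.00 in the GFP livers, with no overlap. Neither passed over all genes (limma, adjusted p = 0.556 and 0.409), and near-identical members of this family may cross-hybridise. Saa4, which the liver makes without inflammation too, had a difference of 0.42 and overlapping groups. Of the 8 measured genes for HDL enzymes and serum amyloids, 5 had higher and 3 lower means, and 0 passed in limma. Of these, 2 had an unadjusted limma p under 0.05 (Saa2 and Saa3), where 3.33% of all genes were higher at that value. Both are on the acute phase list, chosen because earlier results of these arrays showed its genes higher. Their count here followed largely from that choice and is not a separate result. Both passed without SHH 26, where 46 of all 22180 genes did.

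**Figure D4:**
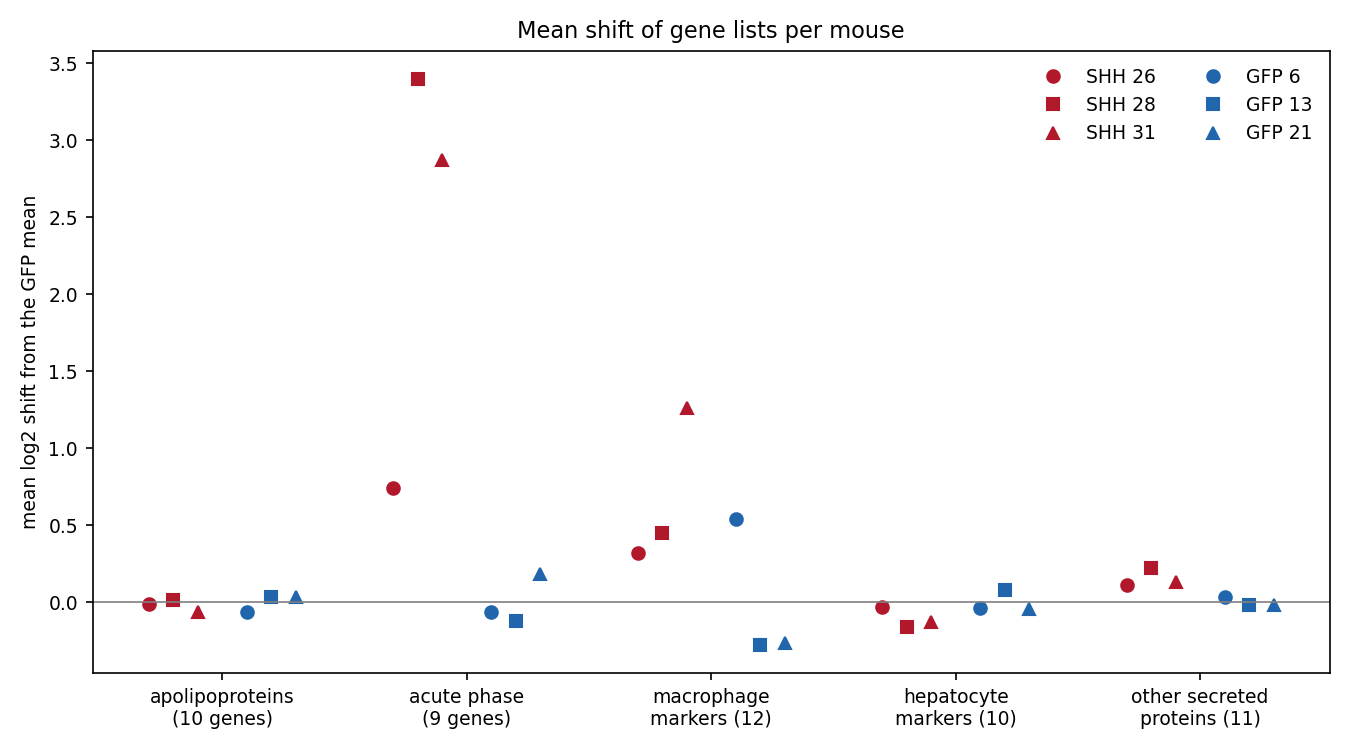
Mean log2 shift of each gene list from its GFP mean (y axis), 1 point per mouse, SHH livers red and GFP livers blue. The acute phase genes, listed because earlier results of these arrays showed them higher, reach a mean of 3.40 in SHH 28. The mean of the apolipoprotein genes, which combines differences from -0.30 to 0.33, lies between -0.06 and 0.03 in all 6 mice.

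Apolipoproteins beyond the 10 had means in both directions. Of 12 measured, 6 were higher and 6 lower, and 0 passed over all genes in limma. At an unadjusted p under 0.05 there was 1 in each direction, against 3.33% of all genes higher and 4.01% lower. Apol7a, of the apolipoprotein L family, had signals of 8.08, 7.57 and 7.92 in the SHH livers, against 8.67, 8.68 and 8.32 in the GFP livers, and a difference of -0.70 (95% interval -1.09 to -0.32; limma, adjusted p = 0.409). Apof, an inhibitor of cholesteryl ester transfer in humans, had 10.58, 10.82 and 10.80 in the SHH livers, against 10.43, 10.47 and 10.41 in the GFP livers, a difference of 0.30 (limma, adjusted p = 0.667). The groups did not overlap for either. Apoh (difference 0.13, limma adjusted p = 0.86), named after its values were seen, also had no overlap, while Apol10b (0.80) did. Of the 12, 2 were higher and 1 lower without overlap, against 5.26% and 7.25% of all genes. Other secreted hepatocyte proteins had higher means for 10 of 11, where 56.2% of all genes had lower ones, and their median difference was 0.13. The higher ones include Alb and Serpina1a (0.01 each) and Serpinc1 and Ttr (0.02 each), named after their values were seen. Alb and Ttr were read near the top of the range. In limma 0 of the 11 passed the threshold. The fibrinogen chain Fga (0.53) and kininogen Kng1 (0.39) had an unadjusted p under 0.05, 2 of 11, against 3.33% of all genes higher at that value. The clotting and matrix protein Vtn differed by 0.29 and did not pass.

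Genes of lipoprotein assembly and secretion had lower means for 9 of 13 and higher for 4, against 56.2% lower over all genes. Their median difference was -0.08, 0 passed in limma and 0 had an unadjusted p under 0.05. Tm6sf2, which helps load lipid onto VLDL, differed by 0.28, the phospholipid-remodelling enzyme Lpcat3 by -0.28 and the sorting receptor Sort1 by -0.31. Among genes of lipoprotein receptors and uptake, 7 of 10 had higher means and the median was 0.19. In limma 0 passed and 1 had an unadjusted p under 0.05, against 7.34% of all genes. That was Cd36, a fatty acid and lipoprotein scavenger receptor, with 7.92, 7.99 and 8.14 in the SHH livers, against 8.85, 8.81 and 8.16 in the GFP livers. The remnant receptor Lsr differed by 0.39 and the cholesterol exporter Abcg1 by 0.35.

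Plasma lipases and their regulators included larger differences, none past the threshold over all genes (0 of 7, limma). An unadjusted p under 0.05 was found for 3 (Lipg and Angptl4 lower, Lpl higher), against 7.34% of all genes. Lipg, endothelial lipase, which acts on HDL, had signals of 6.75, 6.29 and 6.64 in the SHH livers, against 7.998, 9.07 and 6.79 in the GFP livers. The groups did not overlap, though GFP 21 lay near the SHH livers, and the difference was -1.39 (95% interval -2.45 to -0.34; adjusted p = 0.577). Angptl4, an inhibitor of lipoprotein lipase, had 8.12, 8.24 and 7.35 in the SHH livers, against 8.61, 8.84 and 8.63 in the GFP livers, a difference of -0.80 (limma, adjusted p = 0.512). Lpl, lipoprotein lipase itself, differed by 0.57 and was higher in each SHH liver (6.21, 6.22 and 6.87, against 6.12, 5.41 and 6.07 in GFP livers).

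Of 20 transcription factors that control apolipoprotein genes, 13 had lower and 7 higher means, 0 passed in limma, and 3 had an unadjusted p under 0.05, all lower, against 4.01% of all genes. Ppara, the fatty acid receptor that drives oxidation genes, had signals of 8.60, 8.20 and 8.05 in the SHH livers, against 8.67, 8.95 and 8.93 in the GFP livers, a difference of -0.57 (95% interval -0.95 to -0.19; adjusted p = 0.524). Mlxipl, which responds to glucose, differed by -0.41 and the orphan receptor Nr2f2 by -0.35. SHH 26 lay closest to the GFP livers for Ppara.

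The genes whose signal ran most like each member over the 6 arrays were sought among 10126 genes with an SD of at least 0.2, with Pearson r as the measure. The best matches had r of 0.971 to 0.998, but 8 to 44 genes lay above 0.95 for each member, as so few arrays allow, and the values are a description. For Apoa2 it was Acaa1b, a peroxisomal thiolase, with 8.87, 8.23 and 8.47 in the SHH livers, against 9.51, 9.83 and 9.46 in the GFP livers. For Apoe it was Spatc1l, for Apoa4 Cuedc2, for Apob Seh1l and for Apoc1 Dpysl2. The matches of Apom (Olfr823) and Apoc3 (Olfr1532-ps1) had signals of 1.11 to 2.60, below the lower quartile of every array. Those of Apoa1, Apoa5 and Apoc2 were the predicted or unnamed genes Gm5451, 4930486L24Rik and Gm8273.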

How the data were processed

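Per the submitters' processing notes, the authors made the deposited log2 signals with RMA; which version and which probe set level is not given in the sources used here. RNA was extracted with Trizol and biotin-labelled, per the labels' protocols. Platform annotation paired 23521 of 41345 probe sets with 1 gene and 1814 with several. Where several probe sets named a gene alone, the one with the highest overall mean was kept, giving 22180 genes; each apolipoprotein gene had 1. The test was limma (version 3.58.1, R 4.3.3; lmFit, eBayes, two-sided), with no filter or covariate and Benjamini-Hochberg adjustment over all genes, and was tested on simulated data. Nothing in the labels pairs the mice. The exact permutation test of 3 against 3 cannot go below p = 0.1. Whether p-values cover more than the spread between these 6 mice is unknown, and the number of arrays limits the precision. Members, gene lists and motifs were chosen with earlier results of these data known. Named genes were the 10 members, Shh, up to 3 per list by smallest unadjusted p, acute phase genes and the gene most like each member. Other settings tried were averaging a gene's probe sets, testing every probe set, dropping genes under the median level, equal array medians, another quantile normalization, a trended prior, array weights, other thresholds and each mouse left out.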

Additional observations from a re-analysis of the deposited data

How the results depend on the processing

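The count of 0 apolipoprotein genes past the threshold held in all 13 other fits and at a threshold of 0.1; at an unadjusted p under 0.05 it was 1, and that count was 0 without SHH 26, SHH 31, GFP 6 or GFP 21 and 2 without SHH 28 or with a trended prior. Of 130 member values under these fits, 124 kept their sign and 6 did not: Apoa5 without SHH 31 (0.03), GFP 6 (0.00) or GFP 13 (0.05), Apob with a second quantile normalization (-0.00) or without SHH 28 (-0.01), and Apoc2 without SHH 31 (-0.01). With each mouse left out, 5 to 7 members had lower means, the median difference was -0.12 to -0.03, the members without overlap numbered 3 to 5 lower and 1 to 2 higher (11.5% to 14.03% and 8.99% to 10.7% of all genes in the same fits), and a second quantile normalization gave 0 higher. Without SHH 26, 46 genes passed over all genes, none of them among the 10; the cause was not tested. No paired analysis was possible because the groups share no replicate number. With 3 mice a group, the intervals given limit which differences the limma fit could resolve. Those of Apoa2 and Apoc3 owe part of their width to the variance shared over all genes. Signals near the top of the range limit Apoa2 and Apob most.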

Other observations

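Fabp2, a fatty acid binding protein listed with the enterocyte markers and named here after its values were seen, had signals of 8.78, 8.42 and 8.36 in the SHH livers, against 9.31, 9.70 and 8.82 in the GFP livers. The groups did not overlap, and the difference of -0.76 (95% interval -1.26 to -0.25) did not pass over all genes (limma, adjusted p = 0.521). Of the 7 endothelial markers, 7 had lower means in SHH livers, against 56.2% of all genes. In limma 0 of these passed and 0 had an unadjusted p under 0.05. All 8 neutrophil markers had higher means, 0 passed and 4 had an unadjusted p under 0.05, against 3.33% of all genes higher at that value.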
